A study of Trametes versicolor with 17 samples.

Results

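This account covers 54 genes of the white-rot fungus Trametes versicolor whose transcripts were most abundant when the mycelium grew with the aqueous phase called SD, made from waste of salad dressing. They were chosen from 14296 gene models by their read counts at 3 days, expressed as CPM, a count scaled to a library total of 1000000. In a member the lowest SD library had at least 1.3 times the CPM of the highest of the other 9 libraries, and the SD mean was 5 CPM or more. The rule further asked that the lowest FW or AB library lie under 1.5 times the highest control, that the lowest AB library lie above the lowest control divided by 8, and that the 12 libraries span at least 1.5 times. Of 7961 models with an SD mean of 5 CPM or more, 61 met the ratio of 1.3, and 7 of these failed the condition on AB. A pair of genes that the rule names for exclusion did not meet its thresholds.

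Every group was mycelial pellets of the wild type, with the genotype label ASM 8036, grown in medium with 2% malt extract at 28 °C and 135 rpm. At 3 days there were 3 control libraries in that medium alone and 3 libraries each with 5% of the aqueous phase from food waste (FW), from salad dressing waste (SD) and from waste of algal biomass (AB). At 7 days, in a batch labelled preliminary, there were 3 libraries with 5% AB and 2 controls, and no SD or FW. The titles call the libraries biological replicates. A level here is a gene's share of the RNA of whole pellets, so that fewer cells of a kind that expresses the gene and less of its transcript per cell cannot be told apart.

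Hydrothermal liquefaction treats wet waste with hot, pressurised water to make a crude oil, and the water that is left carries dissolved organic compounds whose makeup depends on the feedstock. White-rot fungi are studied as a way to treat such water because they secrete broad-acting oxidative enzymes, among them laccases and heme peroxidases, which attack lignin and many other aromatic compounds. None of the 54 genes is one of the 8 laccases and multicopper oxidases or the 31 heme peroxidases that carry a symbol in the reference gene table. All 54 matched a locus tag of that table and none has a gene symbol or a described product there, so the genes are named by locus tag and position, and no role is given to them.

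Total counts ran from 15459249 to 18770043 in the 3-day libraries and from 27654678 to 35223283 in the 7-day libraries. The lowest count of any member in an SD library was 84 and the median of the members' lowest SD counts was 246. The SD libraries detected 11617 to 11629 gene models, and the other 9 at 3 days 11501 to 11622. The SD libraries also had the highest scaling factors for composition (TMM, edgeR's trimmed mean of M values), with a mean of 1.10 against 0.930 to 1.00 in the other 9. On plain CPM the median of all 10838 tested genes was thus 0.17 higher in SD than in control on the log2 scale, and after TMM scaling it was -0.01. Log2 fold changes below are TMM-scaled and so relative to that shift, while levels are plain CPM as the rule uses them. Part of each member's margin lay in this shift. On TMM-scaled levels 22 of the 54 still met the whole rule. All 54 had every SD library above the other 9, by a ratio of at least 1.08. The ratio that the rule asks for and the range of the scaling factors allow no other outcome, so nothing is read from it.

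**Figure D1:**
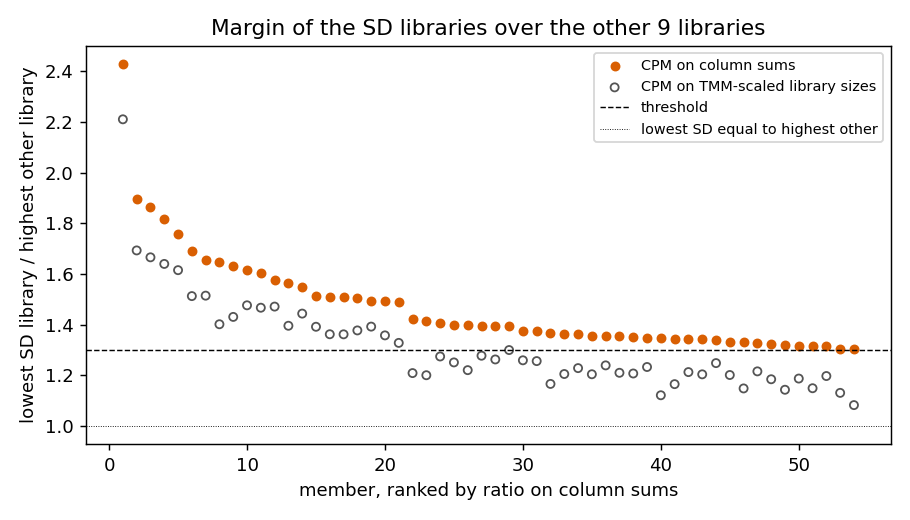
The lowest SD library divided by the highest of the other 9 libraries at 3 days (vertical axis, a ratio), for the 54 members ranked by it, on plain CPM (filled points) and on TMM-scaled CPM (open points), with the threshold of 1.3 dashed. Plain ratios run from 1.303 to 2.43 with a median of 1.40, and scaled ratios start at 1.08 with a median of 1.25, so 22 members stay above the threshold.

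Since every 3-day library entered the rule, the values of the members at 3 days are a description and no test is given for them. The members were mostly genes of modest abundance. Mean SD levels ran from 5.81 to 264 CPM with a median of 15.5 CPM, where the median of all tested genes under SD was 18.9 CPM. In 15 members the SD mean was under 10 CPM, in 32 it was from 10 to 100 CPM, and in 7 it was 100 CPM or more. In control the members' median was 6.44 CPM, against 16.7 CPM over all tested genes. Per kilobase of gene model the members' median SD level was 14.9 CPM per kilobase, near the 14.1 of all tested genes. The rule asks members for an SD mean of 5 CPM or more. All tested genes do not share this floor, so these medians are not of like sets. Summed over the 54 genes, the SD libraries held 2565, 2584 and 2439 CPM, the controls 1186, 1222 and 1036, the FW libraries 1340, 1227 and 1336, and the AB libraries 782, 784 and 810.

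The log2 fold change of SD against control had a median of 0.98 over the members and ranged from 0.37 to 4.43, and in 26 members it was 1 or more. Over all tested genes the median was -0.01. Against the same controls the members' median was 0.05 under FW (range -1.13 to 3.26) and -0.40 under AB (range -2.67 to 0.88). The 3 comparisons share the control libraries. The members are described below by where their FW and AB libraries lay relative to control. No share of all tested genes is given for the joint patterns of FW and AB. Nothing is therefore read from the number of members in each pattern. In 10 of 54 members (18.5%) all FW libraries lay above all controls, where 25.1% of all tested genes did so, and in 6 (11.1%) all lay below, against 26.9% of all tested genes. All AB libraries lay below all controls in 25 members (46.3%), against 35.8% of all tested genes, and above them in 1 member (1.85%), against 33.1%. The rule caps FW and AB from above and has a floor for AB, so nothing is read from these shares. On TMM-scaled levels the counts were 13 and 5 for FW and 26 and 1 for AB. The shares of all tested genes are not given on that scale, so these counts are not read either.

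**Figure D2:**
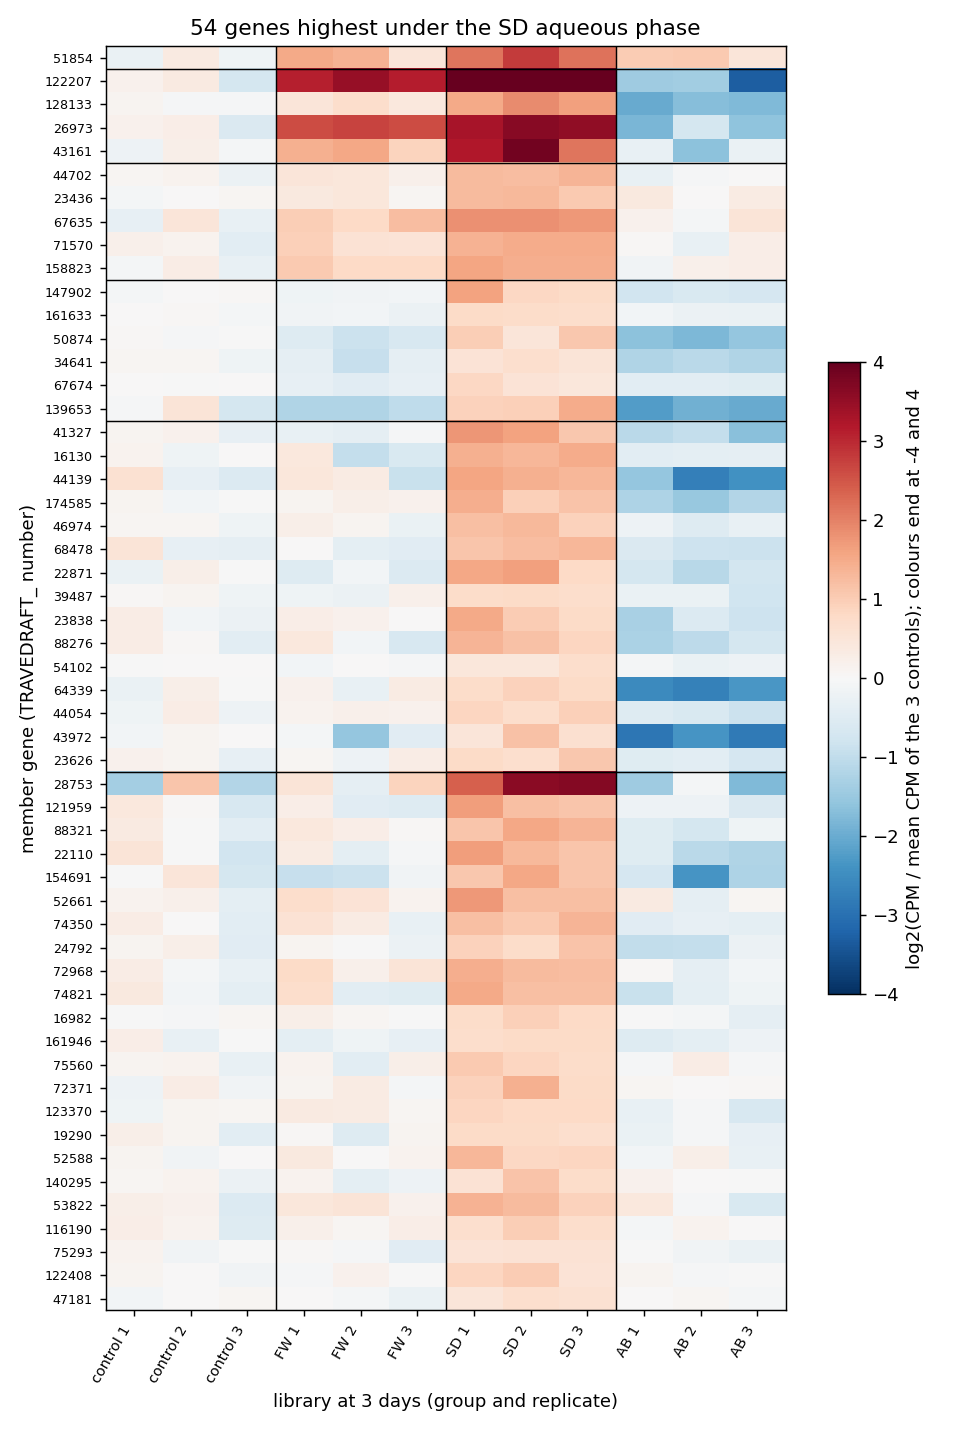
CPM of each of the 54 members (rows, by the number of the locus tag) in the 12 libraries at 3 days (columns), as log2 of the ratio to the mean of the 3 controls, with lines between the 4 groups of libraries and between members grouped by whether FW and AB libraries lie above, below or across the control range. The SD columns are the highest in every row by the rule. The FW columns are clearly raised in the rows of TRAVEDRAFT_122207 and TRAVEDRAFT_26973, and AB columns are lowered in the rows of TRAVEDRAFT_64339 and TRAVEDRAFT_43972.

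In 4 members all FW libraries lay above control and all AB libraries below it. TRAVEDRAFT_122207 (scaffold 5, 786751 to 788996, plus strand, 13 exons) had the largest SD fold change of the 54. Its controls held 3.80, 4.33 and 2.08 CPM, its FW libraries 29.4, 38.3 and 29.7, its SD libraries 79.4, 97.6 and 69.6, and its AB libraries 1.28, 1.29 and 0.349. No 2 of these groups overlapped, in the order AB, control, FW, SD. The log2 fold change against control was 4.43 under SD (SE 0.31), 3.26 under FW (SE 0.30) and -1.79 under AB (SE 0.36).

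TRAVEDRAFT_26973 (scaffold 3, 613296 to 614714, minus strand, 7 exons) had the same order at a higher level. The controls held 18.1, 19.2 and 10.6 CPM, the FW libraries 96.4, 104 and 97.2, the SD libraries 158, 199 and 186, and the AB libraries 4.46, 9.84 and 5.18. The gap between the highest AB library and the lowest control was under 1 CPM, while SD and FW lay far above. Its log2 fold change was 3.33 under SD (SE 0.27), 2.64 under FW (SE 0.26) and -1.29 under AB (SE 0.26). Per kilobase its SD level was 169 CPM per kilobase, rank 3 among the members.

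TRAVEDRAFT_43161 (scaffold 2, 1396980 to 1399904, 10 exons) was the least abundant of these 4 in control. Its controls held 1.10, 1.49 and 1.21 CPM and its AB libraries 1.04, 0.410 and 1.05, a separation from control that was lost with RLE scaling (DESeq2's size factors). The FW libraries held 3.40, 3.72 and 2.34 CPM, and the SD libraries 11.7, 18.5 and 5.63. The SD libraries differed from each other by more than the FW group differed from control, and the log2 fold change under SD was 3.05 (SE 0.41).

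TRAVEDRAFT_128133 (scaffold 8, 85527 to 86353, minus strand, 4 exons) was tight within groups. It held 5.34, 4.79 and 4.77 CPM in control, 6.96, 8.10 and 6.66 under FW, 14.2, 18.5 and 15.5 under SD, and 1.22, 1.52 and 1.46 under AB. Here too the 4 groups did not overlap. The log2 fold changes were 1.51 (SE 0.16), 0.54 (SE 0.16) and -1.82 (SE 0.18) under SD, FW and AB.

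**Figure D3:**
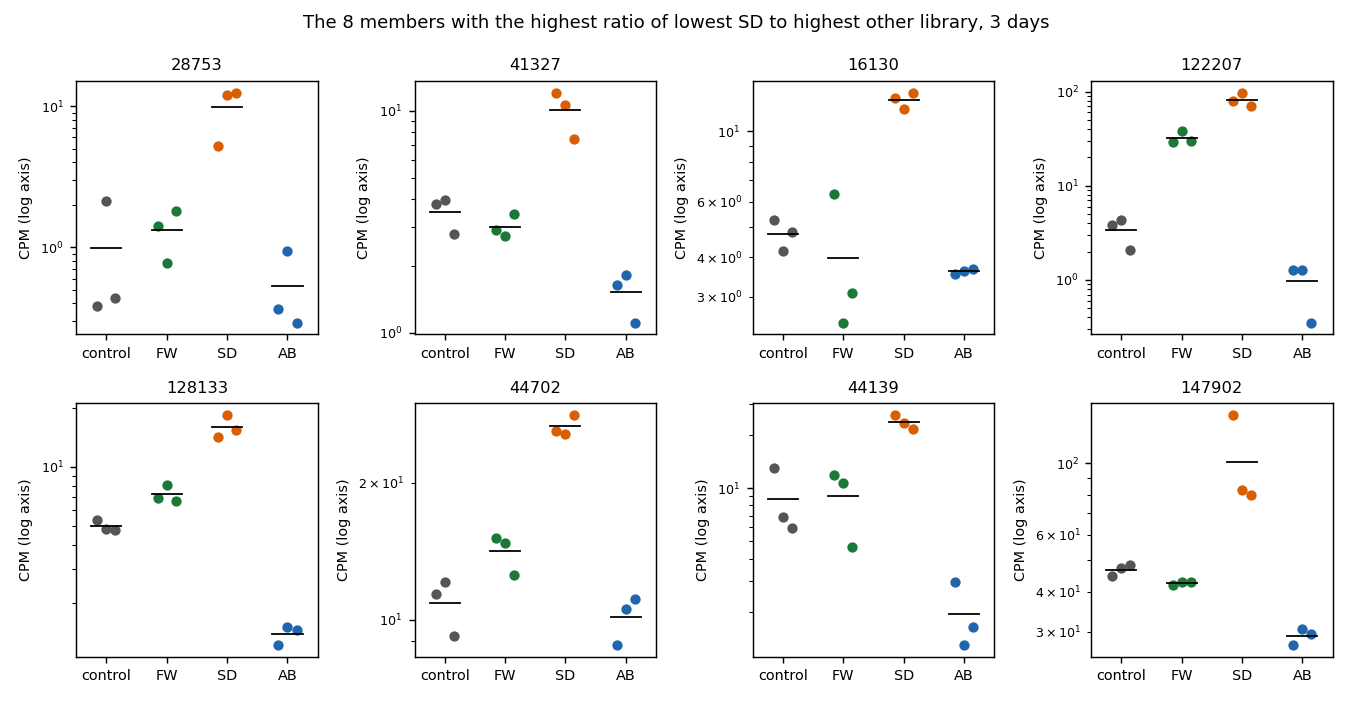
CPM (log axis) in the 3 libraries of each group at 3 days for the 8 members with the highest ratio of the lowest SD to the highest other library, one panel per locus tag number, with a line at each group's mean. The ratios run from 2.43 in TRAVEDRAFT_28753 to 1.65 in TRAVEDRAFT_147902. FW stands apart from control in the panels of TRAVEDRAFT_122207 and TRAVEDRAFT_128133, and a single SD library is far above its group in the panel of TRAVEDRAFT_147902 and far below it in that of TRAVEDRAFT_28753.

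In 5 members FW lay above control and AB across the control range. TRAVEDRAFT_67635 (scaffold 17, 12991 to 13942, minus strand, 5 exons) had the highest SD level of all members per kilobase, at 333 CPM per kilobase. Its controls held 54.6, 96.1 and 55.9 CPM, its FW libraries 135, 119 and 163, its SD libraries 246, 242 and 231, and its AB libraries 77.8, 64.8 and 99.4. The SD libraries were close together and the controls were not, with control replicate 2 well above the other pair. The log2 fold change was 1.63 under SD (SE 0.23) and 1.02 under FW (SE 0.22).

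TRAVEDRAFT_44702 (scaffold 3, 2187866 to 2189627, minus strand, 8 exons) was among the 8 members with the highest ratio, at 1.69. It held 11.4, 12.1 and 9.21 CPM in control, 15.1, 14.8 and 12.6 under FW, 26.0, 25.6 and 28.2 under SD, and 8.79, 10.5 and 11.1 under AB. The FW libraries cleared the controls by a small margin and the SD libraries by a wide one. The other members with this pattern were TRAVEDRAFT_23436, TRAVEDRAFT_71570 and TRAVEDRAFT_158823. Over the 5 the log2 fold change ran from 1.02 to 1.63 under SD, from 0.31 to 1.02 under FW and from -0.10 to 0.25 under AB.

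TRAVEDRAFT_51854 (scaffold 11, 992226 to 993509, minus strand, 4 exons) was the member with FW and AB both above control. Its libraries held 0.936, 1.42 and 0.987 CPM in control, 3.17, 2.95 and 1.55 under FW, 4.91, 7.74 and 5.01 under SD, and 2.26, 2.28 and 1.57 under AB. The lowest FW and AB libraries were just above the highest control. The SD log2 fold change was 2.22 (SE 0.31).

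In 6 members both FW and AB lay below control, so that SD lay on one side of control and the other phases on the other. The clearest was TRAVEDRAFT_139653 (scaffold 1, 2769079 to 2770834, plus strand, 10 exons). Its controls held 28.5, 41.6 and 17.9 CPM, its FW libraries 12.7, 12.6 and 14.6, its SD libraries 55.8, 57.4 and 81.9, and its AB libraries 6.23, 7.67 and 7.28. The groups followed each other without overlap in the order AB, FW, control, SD. The log2 fold change was 0.98 under SD (SE 0.24), -1.13 under FW (SE 0.25) and -2.04 under AB (SE 0.26).

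TRAVEDRAFT_147902 (scaffold 5, 2374784 to 2375777, plus strand, 4 exons) held 44.7, 47.2 and 48.4 CPM in control, 41.9, 42.7 and 42.9 under FW, and 27.2, 30.6 and 29.5 under AB. Its SD libraries held 141, 82.5 and 79.8 CPM, so SD replicate 1 stood far above the other 2. The FW libraries overlapped the controls once scaled by TMM or RLE. Its SD level per kilobase, 131 CPM per kilobase, had rank 5 among the members.

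The remaining 4 of the 6 were TRAVEDRAFT_161633, TRAVEDRAFT_50874, TRAVEDRAFT_34641 and TRAVEDRAFT_67674. TRAVEDRAFT_161633 (scaffold 2, 3069624 to 3071570) had SD libraries close together, with 32.1, 32.9 and 29.8 CPM in control, 53.2, 52.7 and 51.5 under SD, and all FW and AB libraries between 26.1 and 29.4. TRAVEDRAFT_50874 (scaffold 10, 467258 to 468106), a model of 1 exon, stepped down from 7.88, 7.504 and 7.68 CPM in control to 5.43, 4.20 and 4.95 under FW and 2.44, 2.23 and 2.62 under AB, against 15.3, 10.8 and 16.1 under SD. Over all 6 the SD log2 fold change ran from 0.40 to 0.98. In members with FW above control it was 1.02 or more, a difference that the rule favours, since SD had to clear FW as well.

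In 15 members FW lay across the control range and AB below it. TRAVEDRAFT_64339 (scaffold 5, 270148 to 271883, minus strand, 6 exons) had the highest SD mean of all 54, at 264 CPM (standard deviation 20.5, n = 3), and 182 CPM per kilobase. Its controls held 125, 179 and 150.3 CPM, its FW libraries 169, 122 and 189, its SD libraries 249.9, 288 and 255, and its AB libraries 26.1, 23.3 and 29.9. The FW range covered the control range on both sides. The log2 fold change was 0.62 under SD (SE 0.18) and -2.52 under AB (SE 0.19), so the AB value was further from 0 than the SD value.

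TRAVEDRAFT_43972 (scaffold 3, 41160 to 41906) had the lowest AB fold change of the members, at -2.67 (SE 0.33), and lay near the threshold with a ratio of 1.32. It held 12.2, 14.2 and 13.3 CPM in control, 18.6, 29.8 and 20.8 under SD, and 1.77, 2.58 and 1.86 under AB. Its FW libraries held 12.6, 4.49 and 9.64 CPM and were spread widely. In TRAVEDRAFT_44139 (scaffold 3, 539496 to 541146) the AB libraries held 2.93, 1.29 and 1.63 CPM, the controls 13.1, 6.86 and 5.98, the FW libraries 11.9, 10.8 and 4.64, and the SD libraries 26.0, 23.3 and 21.7. Control and FW were both scattered there, and SD was not.

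TRAVEDRAFT_41327 (scaffold 1, 646167 to 647350) and TRAVEDRAFT_16130 (scaffold 1, 529694 to 531227) had the next highest ratios after the first member, at 1.90 and 1.86. TRAVEDRAFT_41327 held 3.80, 3.95 and 2.80 CPM in control, 2.89, 2.72 and 3.41 under FW, 12.1, 10.7 and 7.48 under SD, and 1.65, 1.82 and 1.11 under AB. TRAVEDRAFT_16130 held 5.23, 4.20 and 4.83 CPM in control, 6.34, 2.48 and 3.09 under FW, 12.7, 11.8 and 13.3 under SD, and 3.54, 3.63 and 3.67 under AB. Its FW replicate 1 was the highest library outside SD. The log2 fold changes under SD were 1.35 (SE 0.23) and 1.23 (SE 0.26).

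TRAVEDRAFT_22871 (scaffold 10, 1505330 to 1506112, 2 exons) held 14.3, 20.1 and 16.999 CPM in control and 49.8, 52.9 and 29.9 under SD. Under FW it held 11.9, 16.0 and 11.7 CPM and under AB 10.4, 8.02 and 10.2. SD replicate 3 was the low one and still above every other library. Over the 15 members of this pattern the log2 fold change ran from 0.37 to 1.35 under SD, from -0.57 to 0.17 under FW, and from -2.67 to -0.18 under AB.

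In the largest set, 23 members, neither FW nor AB separated from control. TRAVEDRAFT_28753 (scaffold 5, 2169834 to 2170634, minus strand, 3 exons) had the highest ratio of all 54, at 2.43, and was the 1 member above a ratio of 2. Its controls held 0.385, 2.13 and 0.439 CPM, its FW libraries 1.42, 0.768 and 1.81, its SD libraries 5.18, 11.98 and 12.5, and its AB libraries 0.366, 0.937 and 0.291. These rest on 7, 33 and 8 reads in the controls and 94, 209 and 222 under SD. The lowest SD library was replicate 1 and the highest library outside SD was control replicate 2. The log2 fold change was 3.19 under SD (SE 0.57), and 0.49 (SE 0.63) and -0.83 (SE 0.72) under FW and AB, so that the SEs of the latter pair were nearly as large as, or larger than, the changes.

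TRAVEDRAFT_161946 (scaffold 2, 3728209 to 3730072, 3 exons) was the most abundant of this set. It held 165, 112 and 137 CPM in control, 106, 123.4 and 111 under FW, 227, 233 and 237 under SD, and 96.7, 106 and 120.3 under AB. Its SD level was 147 CPM per kilobase. SD libraries were close together at a log2 fold change of 0.57 (SE 0.14). Over the 23 members the median log2 fold change was 0.85 under SD (range 0.39 to 3.19), 0.04 under FW (range -0.56 to 0.51) and -0.15 under AB (range -1.25 to 0.08). TRAVEDRAFT_53822, with 5.81 CPM under SD on average, is the only member that overlaps another gene model, on the opposite strand. The length of the overlap was not measured. Without strand, its reads within the overlap cannot be told apart from those of that model.

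The 3 members just inside the ratio were TRAVEDRAFT_43972 (1.32), TRAVEDRAFT_47181 (1.31) and TRAVEDRAFT_23626 (1.303), with SD means of 23.1, 8.82 and 9.57 CPM against control means of 13.2, 5.86 and 5.32. Just outside were TRAVEDRAFT_46372 (ratio 1.299, SD mean 14.9 CPM, control mean 7.17), TRAVEDRAFT_69637 (1.296, 29.4 and 17.9) and TRAVEDRAFT_54381 (1.29, 134 and 87.2). The genes on either side were picked for ratios close to the threshold, so their closeness in ratio is by choice, and their levels differed. At a ratio of 1.2, 49 more genes would enter.

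SD replicate 1 was the highest of the 3 in 20 members, replicate 2 in 22 and replicate 3 in 12. The lowest was replicate 1 in 18 members, replicate 2 in 11 and replicate 3 in 25, where over all tested genes the shares were 40.6%, 28.5% and 30.8%. Replicate 3 was thus the lowest in more members than either of the others, which over all genes was replicate 1. The median coefficient of variation among the SD libraries was 13.3%, against 15.9% over all tested genes. The rule favours SD libraries that lie close together and leaves out genes with a low SD mean, so nothing is read from this difference. The library that set the limit outside SD was from FW in 29 members, from control in 23 and from AB in 2, with FW replicate 1 alone setting it in 15. Control replicate 3 was the lowest control in 33 of 54 members, against 41.3% of all tested genes.

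The members lay on 17 of 236 scaffolds, with 9 on scaffold 5, 8 on scaffold 1, and 6 each on scaffolds 3 and 12. The share of all gene models on each scaffold is not given, so neither spread nor clustering is read from these counts. No 2 members were direct neighbours. TRAVEDRAFT_74821 and TRAVEDRAFT_52661 lie 2782 bases apart on scaffold 12 with 1 gene model between them, and TRAVEDRAFT_121959 and TRAVEDRAFT_64339 lie 5400 bases apart on scaffold 5 with 3 models between them. Gene models of members had a median length of 1359 bases and 5 exons, against 1318 bases and 5 exons for all tested genes. A single exon was annotated in 6 members (11.1%) and in 5.43% of all tested genes.

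The genes next to the members were not chosen by the rule, and their change under SD could be tested. Of 106 such neighbours 100 were tested, and 12 were higher and 6 lower under SD than in control at an adjusted p of 0.05 in edgeR's quasi-likelihood test. Over all tested genes 10.3% were higher and 10.9% lower, so the share of risen neighbours was near the background. In 1 member both neighbours rose and in 2 members both fell. Beside TRAVEDRAFT_67635 on scaffold 17, TRAVEDRAFT_75624 rose by a log2 fold change of 1.08 (adjusted p = 0.00354) and TRAVEDRAFT_61539 by 0.94 (adjusted p = 0.00935), 684 and 679 bases away. The neighbours of TRAVEDRAFT_68478 fell by 0.79 (adjusted p = 0.0125, edgeR) and 0.73 (adjusted p = 0.00483), and those of TRAVEDRAFT_128133 by 1.01 (adjusted p = 0.00938) and 0.96 (adjusted p = 0.0236). These 3 members were singled out after the values were seen.

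The 7-day libraries did not enter the rule, and they allow a test of the members between AB and control, though not of SD. With edgeR's quasi-likelihood test, 4 of 53 tested members (7.55%) were called at an adjusted p of 0.05, where 3.28% of all 10192 tested genes were. Of these 3 were lower and 1 higher under AB, against 2.4% and 0.873% of all tested genes. At an unadjusted p of 0.05 the shares were 24.5% of the members and 21.1% of all tested genes. With another spread estimate, from all 17 libraries, 16 members were called and 28.4% of all tested genes. The TMM factors of the 7-day controls were 1.24 and 0.861, further apart than in any 3-day group. The median log2 fold change at 7 days was -0.21 over the members and -0.01 over all tested genes.

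**Figure D4:**
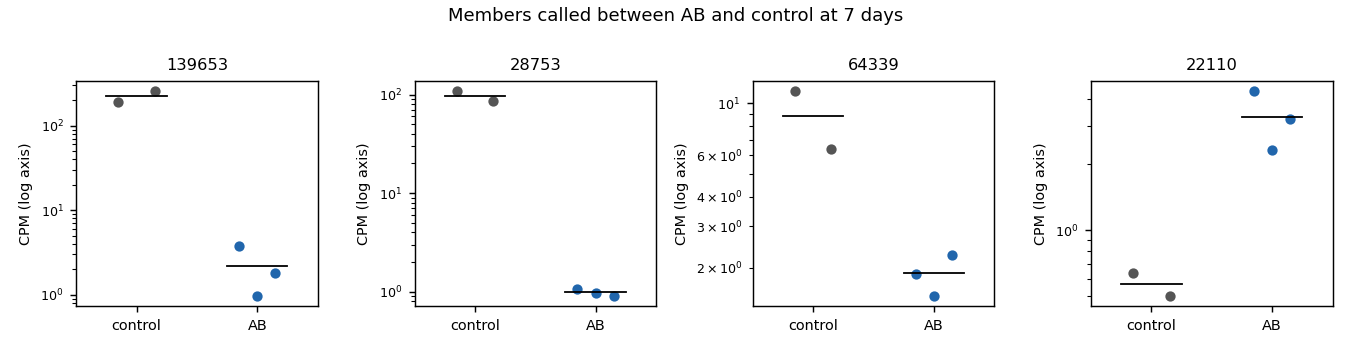
CPM (log axis) at 7 days in the 2 control and 3 AB libraries for the 4 members called between these groups, one panel per locus tag number, with a line at each group's mean. Controls lie far above AB for TRAVEDRAFT_139653 and TRAVEDRAFT_28753, above it for TRAVEDRAFT_64339, and below it for TRAVEDRAFT_22110.

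TRAVEDRAFT_28753, near 1 CPM in 3-day controls, was abundant in the controls at 7 days, with 108 and 86.4 CPM, and nearly absent under AB, with 1.05, 0.976 and 0.908 CPM. These are 3407 and 2757 reads against 34, 27 and 32. The AB libraries were all under the lower control by a wide gap. It fell by 6.54 on the log2 scale (SE 0.32, adjusted p = 0.00509, edgeR). Without control replicate 2, which leaves 1 control assumed to vary like the AB libraries, the adjusted p was 0.0573.

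TRAVEDRAFT_139653 was among the 6 members whose FW and AB libraries both lay below control at 3 days. It held 192 and 256 CPM in the 7-day controls and 3.83, 0.976 and 1.79 CPM under AB. The groups were again far apart. It fell by 6.66 (SE 0.69, adjusted p = 0.0135, edgeR), and the adjusted p was 0.0810 without control replicate 2.

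TRAVEDRAFT_64339 fell from 11.2 and 6.39 CPM in the 7-day controls to 1.88, 1.52 and 2.27 CPM under AB, which is -2.09 on the log2 scale (adjusted p = 0.0376, SE 0.35, edgeR). Its AB libraries had also been below control at 3 days. TRAVEDRAFT_22110 (scaffold 9, 556684 to 558133) rose from 0.635 and 0.501 CPM to 4.32, 2.31 and 3.24 CPM, by 2.61 (SE 0.48, adjusted p = 0.0456, edgeR). At 3 days its AB libraries, at 2.20, 1.46 and 1.34 CPM, overlapped controls of 4.41, 3.04 and 1.81. Both calls were lost without AB replicate 1 or 3 or either control, with adjusted p from 0.100 to 0.166 for TRAVEDRAFT_64339 and from 0.118 to 0.209 for TRAVEDRAFT_22110. A replicate block also ended both calls (adjusted p = 0.217 and 0.267).

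None of the other members described above that were tested at 7 days passed the test, and TRAVEDRAFT_51854 was not tested. TRAVEDRAFT_67635 held 51.1 and 109.5 CPM in control and 17.2, 13.9 and 18.2 under AB, without overlap (log2 fold change -2.33, SE 0.49, adjusted p = 0.0616, edgeR), and was called in 4 of 11 alternatives. TRAVEDRAFT_122207 held 3.33 and 1.69 CPM in control and 23.3, 1.59 and 5.39 under AB, so that AB replicate 1 carried its mean (2.13, SE 1.07, adjusted p = 0.322). TRAVEDRAFT_26973 held 2.95 and 7.33 CPM in control and 7.62, 5.28 and 8.32 under AB (0.41, SE 0.57, adjusted p = 0.727). At 3 days AB lay below control in both genes, and at 7 days the groups overlapped.

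**Figure D5:**
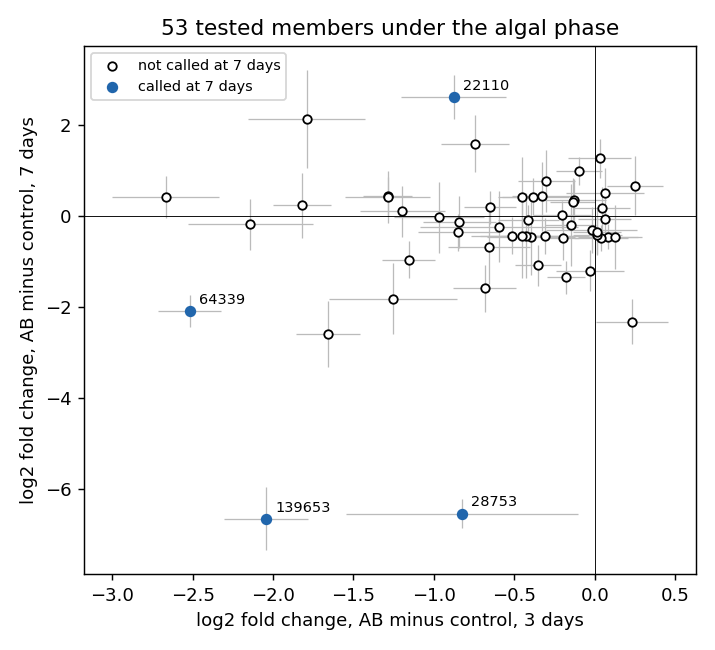
Log2 fold change of AB against control at 3 days (horizontal) and at 7 days (vertical) for the 53 members tested at 7 days, with bars of 1 SE and filled points for the 4 called at 7 days. The 2 axes share no library. TRAVEDRAFT_139653 and TRAVEDRAFT_64339 are low on both, and TRAVEDRAFT_28753 is low at 7 days with a wide SE at 3 days.

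The AB fold changes of the members at 3 and 7 days came from separate libraries. Across the 53 members, which are not independent replicates, Pearson's r was 0.20 and Spearman's rho 0.04, and across the 10011 genes tested at both times r was 0.35 and rho 0.34. In 42 of the 54 members the fold change at 3 days was below 0, and 25 of these were below 0 at 7 days too. At 7 days 60.4% of the tested members and 50.3% of all tested genes were below 0. The 3-day libraries entered the rule, so nothing is read from the count at 3 days. Of the 53 tested at 7 days, AB lay below both controls on plain CPM without overlap in 13 (24.5%), against 20.9% of all tested genes. It lay above them in 4 (7.55%), against 15.2%. These shares are not given for TMM-scaled levels.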

How the data were processed

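The authors deposited raw read counts, whole numbers for each gene model in each library. Alignment with HISAT2 and counting with featureCounts are taken per the submitters' processing notes. Which versions and build were used, whether strand was read, and how multi-mapping reads were treated is not given in the sources used here. Lengths in bases and coordinates are other columns of the deposited files. Of 14296 models, 14214 matched a locus tag of the RefSeq table of assembly Trametes versicolor v1.0 by start and end.

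The membership rule was applied to CPM on column sums. The count model was edgeR's (4.0.16, run under R 4.3.3). Library sizes were TMM-scaled, low genes were dropped by filterByExpr, and two-sided p-values of the quasi-likelihood test were Benjamini-Hochberg adjusted over all genes tested: 10838 genes in 12 libraries at 3 days and 10192 in 5 libraries at 7 days. Calls use an adjusted p of 0.05. Each SE is the absolute log2 fold change over the square root of F, and approximate. Residual degrees of freedom were 8 and 3, and the biological coefficient of variation 0.188 and 0.455. The fits were tested on simulated data, where the 3-day fit recovered most of the changed genes and the 7-day fit few, so that a member not called at 7 days is not shown to be unchanged. At 3 counts the level was at most 0.194 CPM at 3 days and 0.108 CPM at 7 days.

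Members and lists were chosen with earlier results of these data known. Named members were the 8 with the highest ratio, the 6 highest per kilobase, those called at 7 days and the 3 nearest the threshold. Others were named after their values were seen, to show each pattern. Lists by product, protein patterns and promoter motifs were planned but could not be formed from the reference table, and no sequence was used. Alternatives were RLE scaling, DESeq2 1.42.0, other filters, thresholds and sets of libraries, and a replicate block.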

Additional observations from a re-analysis of the deposited data

Results flagged for a closer look

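A pair of members was flagged because, on plain CPM, their AB libraries lay on opposite sides of control at 3 and at 7 days without overlap. The share of all genes that change sides in this way is not given. Their number is therefore not read as a result about the members. The difference between the days was not tested, because the 3-day libraries entered the choice of members. Day and batch cannot be told apart. TRAVEDRAFT_68478 (scaffold 1, 3055687 to 3058430) held 14.7, 12.2 and 12.1 CPM under AB and 31.6, 17.4 and 16.9 in control at 3 days, a log2 ratio of means of -0.75. At 7 days it held 12.1, 27.0 and 7.44 CPM under AB and 5.68 and 5.39 in control, a log2 ratio of 1.49, and edgeR's adjusted p was 0.221. TRAVEDRAFT_51854 had a log2 ratio of 0.87 at 3 days and -0.80 at 7 days. The latter rests on 6, 6 and 4 reads under AB and 8 and 11 reads in control, too few to pass the filter of the test. Its AB replicate 2 held 0.217 CPM and its control replicate 1 0.254 CPM at 7 days. With the TMM factors of these libraries, 0.935 and 1.24, their order turns, so this separation does not hold once scaled.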

How the results depend on the processing

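The number of members depends on the scaling and on the ratio. It was 22 with TMM-scaled or RLE-scaled levels, all of them among the 54, and 103, 18 and 1 at ratios of 1.2, 1.5 and 2. Leaving out 1 library gave 55 to 124 genes, with 124 without SD replicate 1 and 84 without SD replicate 3 or control replicate 1. The condition on the ratio is only eased or unchanged when a library is left out, so nothing is read from the rise. The median SD log2 fold change stayed between 0.99 and 1.01 with RLE scaling, DESeq2, a fit of SD and control alone or a replicate block, and between 0.88 and 1.08 when 1 library was left out. Of the members called at 7 days, DESeq2 gave 7 (2 higher, 5 lower, where it called 13.1% of all genes) and the fit over all 17 libraries 16 (5 higher, 11 lower). A filter at 10 CPM, with 19 members tested, left 0 higher. The replicate block gave 2 in all and 0 higher. For this filter, the block and the fits with 1 library left out, the share of all tested genes called is not given. Those counts are therefore not read as results about the members. Whether equal replicate numbers pair the libraries was not tested. At 3 days, deviations from the group means had a median correlation of 0.02 in same-numbered samples (18 pairs, range -0.17 to 0.39). In differently numbered samples it was -0.03 (36 pairs, range -0.40 to 0.32). At 7 days the medians were -0.21 (2 pairs) and 0.14 (4 pairs). The deviations of the 2 controls there mirror each other, so these pairs are not separate values. Leaving out 1 library gave 0 to 5 calls in all, 0 to 1 higher and 0 to 4 lower. The total and the lower calls were 0 without control replicate 2, and the higher calls were 0 without AB replicate 1 or 3 or either control. Among named members not called at 7 days, the sign changed when 1 library was left out for TRAVEDRAFT_41327 (-0.19 to 0.51), TRAVEDRAFT_128133 (-0.52 to 1.91), TRAVEDRAFT_44139 (-0.46 to 0.0010), TRAVEDRAFT_26973 (-0.22 to 1.61) and TRAVEDRAFT_22871 (-0.52 to 0.095). The cause of these changes was not tested. Counts of members whose FW or AB libraries lay apart from control stayed within 1.5 times under TMM and RLE scaling, which were added after seeing the data.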

Other observations

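The controls of the 2 batches placed several members differently, which is given as values because day and batch cannot be told apart. In 41 of 54 members the 7-day control mean was below the 3-day control mean, where 63.0% of all genes tested at 3 days were. It was above the 3-day SD mean in 5 members, TRAVEDRAFT_28753, TRAVEDRAFT_139653, TRAVEDRAFT_39487, TRAVEDRAFT_75560 and TRAVEDRAFT_116190. TRAVEDRAFT_28753 had a mean of 0.986 CPM in control and 9.88 under SD at 3 days, and 97.3 CPM in control at 7 days. TRAVEDRAFT_139653 had 29.3 and 65.0 CPM at 3 days and 224 CPM in the 7-day controls. In another 5 members the 7-day control mean was under 0.1 times the 3-day one, among them TRAVEDRAFT_22871 (17.1 and 0.663 CPM) and TRAVEDRAFT_64339 (151 and 8.81 CPM). For both sets of 5 members the share of all tested genes is not given, so nothing is read from their number.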
